A study of Homo sapiens with 18 samples.

Results

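The genes described here are the clade B serpins of chromosome 18 that epithelial cells transcribe, taken by name from the deposited count table: SERPINB2, SERPINB3, SERPINB4, SERPINB5, SERPINB7, SERPINB8, SERPINB10 and SERPINB13. They are 8 of the 60662 genes in that table, and all 8 passed the filter on low counts that left 18592 genes to test. The members were chosen by name, with no contrast or threshold, but with their measured levels in all 6 groups of libraries in view. The fold changes and adjusted p-values below therefore describe how far each gene differed relative to the spread between libraries, and are not independent evidence about the family.

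RNA came from MCF10A, an established line of non-transformed human mammary epithelial cells. In all groups the cells were trypsinised, seeded sparsely on soft polyacrylamide gels coated with Matrigel, a basement membrane extract, and kept in medium with horse serum, EGF, insulin, cholera toxin and hydrocortisone. After attachment, 3D cultures were overlaid with medium containing 2% Matrigel, which sets around the cells, and 2D cultures received medium alone. Each culture was sampled at timepoints 1, 2 and 3, which correspond to the stated harvests at 3, 12 and 21 h only by their order, and each of the 6 groups has 3 libraries. All groups are 1 cell line on 1 kind of gel, so the cultures differ by the overlay and its matrix proteins together.

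Clade B serpins are inhibitors of proteases that lack a classical secretion signal and act largely inside the cell, where many protect it from its own lysosomal or secreted enzymes. An inhibitory serpin offers its reactive loop as bait, is cleaved by the protease and traps it in an irreversible complex. In squamous and mammary epithelium the chromosome 18 genes are known as markers of differentiation, stress and malignancy: SERPINB2 is plasminogen activator inhibitor type 2, SERPINB3 and SERPINB4 are the squamous cell carcinoma antigens, and SERPINB5 is maspin.

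The 8 genes lie within chr18:63476958-63989374 on hg38, a span of 512417 bases, in the order SERPINB5, SERPINB13, SERPINB4, SERPINB3, SERPINB7, SERPINB2, SERPINB10 and SERPINB8. SERPINB3 and SERPINB4 are transcribed from the minus strand and the other 6 from the plus strand. The stretches before the start sites of 4 of them are given first, from RefSeq on GRCh38.p14, because SERPINB2 and SERPINB13 differed between groups and SERPINB3 and SERPINB4 are near copies. Only bases outside the gene span of the count table are printed, 5′ to 3′ on the gene's own strand. For SERPINB2 (chr18:63887455-63887704, plus strand) and SERPINB13 (chr18:63587093-63587299, plus strand), capitals mark matches to the motifs searched. For SERPINB3 (chr18:63661936-63662143, minus strand) and SERPINB4 (chr18:63644299-63644506, minus strand), capitals mark the bases at which the pair differs.
SERPINB2: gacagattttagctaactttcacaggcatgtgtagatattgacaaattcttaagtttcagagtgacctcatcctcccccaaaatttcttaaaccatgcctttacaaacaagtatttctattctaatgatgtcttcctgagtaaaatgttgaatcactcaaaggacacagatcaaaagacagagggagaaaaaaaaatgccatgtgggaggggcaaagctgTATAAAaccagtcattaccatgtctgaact
SERPINB13: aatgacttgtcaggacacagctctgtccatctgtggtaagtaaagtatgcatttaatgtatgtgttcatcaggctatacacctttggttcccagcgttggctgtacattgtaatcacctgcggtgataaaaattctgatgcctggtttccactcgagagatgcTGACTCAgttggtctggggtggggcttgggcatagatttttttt
SERPINB3: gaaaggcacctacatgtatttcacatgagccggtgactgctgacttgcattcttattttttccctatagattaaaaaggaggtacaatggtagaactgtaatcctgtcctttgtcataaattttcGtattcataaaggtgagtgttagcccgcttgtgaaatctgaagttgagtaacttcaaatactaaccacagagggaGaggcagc
SERPINB4: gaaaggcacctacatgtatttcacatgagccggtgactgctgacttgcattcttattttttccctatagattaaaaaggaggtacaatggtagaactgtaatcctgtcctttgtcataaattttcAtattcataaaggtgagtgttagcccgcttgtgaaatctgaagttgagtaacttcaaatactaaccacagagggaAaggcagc

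The SERPINB3 and SERPINB4 stretches were identical at 206 of 208 positions. Motifs were searched on both strands in the 250 bases before each RefSeq start, for the 7 members with an entry. The AP-1 site, TGAGTCA or its complement TGACTCA, was present in 4.2% of 35116 promoters of that length. It was found before SERPINB13 (87 to 81 bases before the start), before SERPINB8 (28 to 22 bases before it) and before 2 of the 3 starts of SERPINB7 (39 to 33 and 45 to 39 bases before them). The TATA box, TATAAA, was present in 10.7% of promoters and was found before SERPINB2 (30 to 25 bases before the start), SERPINB8 and 1 start of SERPINB7; in SERPINB8 it overlapped a match on the other strand. CCAAT, present in 32.0% of promoters, was found before SERPINB8. TGACGTCA, TGATGNAA and AACCNGTT, present in 1.6%, 3.1% and 1.5% of promoters, matched none of the 7, and no motif matched before SERPINB3, SERPINB4 or SERPINB5. A match is a string of letters in this window and was not tested as a binding site.

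Library totals in the file headers ran from 9.31 M to 17.7 M, and the summed counts were 4.73 to 5.73 times those totals, so a read may have entered more than 1 count. The sources used here do not say how reads were counted, or whether by strand. Counts are therefore not compared between genes. The library labelled 2D timepoint 3 replicate 1 is outside the tests, since its labels point to the raw table but not to the authors' normalised and comparison tables, which leaves 2 libraries in that group. Levels are in CPM, counts per M of TMM-adjusted summed counts. The CPM of the library outside the tests come from a separate scaling of all 18 libraries, so they are not on exactly the same scale. Of 15 markers of epithelial identity, 14 had at least 10 counts in every library; KRT19 had 0 to 54. Of 14 markers of other cell types, CD3E and COL3A1 were at 0 throughout and PTPRC reached 2 counts. In every library 4 of the 14 had at least 10 counts. They were DCN (7252 to 22868), CD68 (340 to 1482), COL1A1 (115 to 511) and PECAM1 (28 to 135). The levels of the 14 summed to between 132 and 282 CPM in 3D libraries, and to between 143 and 289 CPM in 2D libraries. Of these sums, the matrix gene DCN gave 115 to 265 CPM per library. The 2 timepoint 1 libraries of replicate 3 stood apart from the others of that timepoint in TMM factor (0.897 in 3D and 0.889 in 2D, against 1.07 to 1.19) and in the ratio of summed counts to header total (5.53 and 5.48, against 4.73 to 4.93). At timepoint 2 the cultures differed in both, with TMM factors of 0.848 to 0.898 in 3D, against 1.06 to 1.12 in 2D, and ratios of 5.54 to 5.73, against 4.96 to 5.26. With header totals in place of TMM, the timepoint 2 culture differences of SERPINB2 and SERPINB13 were -1.71 and -1.56 on the log2 scale (adjusted p = 0.128 and 0.121).

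Against timepoint 1, SERPINB2 and SERPINB10 fell at timepoints 2 and 3 in both cultures, and SERPINB13 fell in 3D; of all tested genes, 4.86% to 15.1% were called in these comparisons, against 0% to 1.5% between cultures. In 3D over 2D no member passed the edgeR quasi-likelihood test at any timepoint, while SERPINB2 at timepoints 2 and 3 and SERPINB13 at timepoint 2 passed when the replicate number was a block in the fit, all with lower levels in 3D. The same 3 differences, and that of SERPINB10 at timepoint 2, passed when no filter on low counts was applied (adjusted p = 8.44e-06, 3.4e-06, 0.0184 and 0.01 in that order), and SERPINB2 at timepoint 2 passed with only the compared groups fitted (0.0458). The share of all genes passing in these last 2 settings is not given here, so nothing about the members is read from them. SERPINB3, SERPINB4, SERPINB5 and SERPINB7 passed in none of the 9 comparisons with or without the block. In bulk RNA, fewer cells that transcribe a gene and less RNA per cell cannot be told apart.

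**Figure D1:**
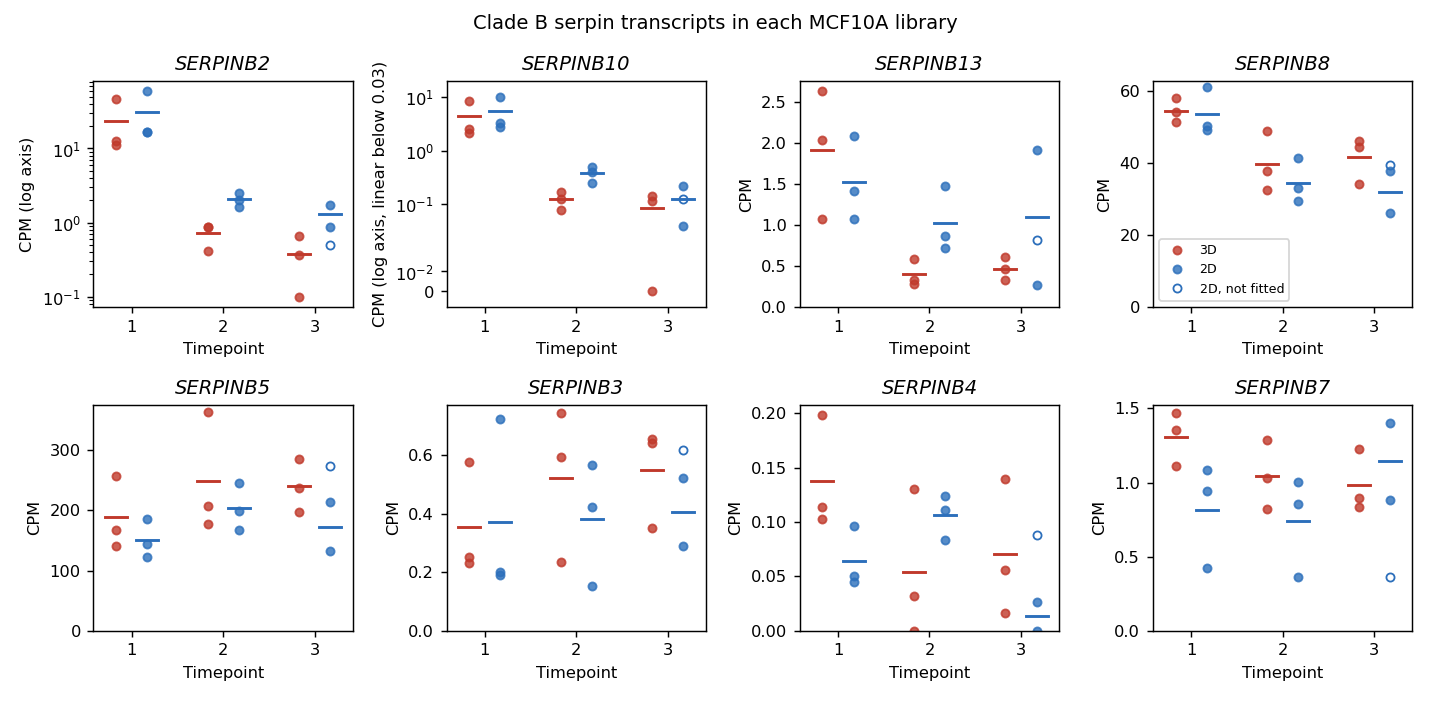
CPM of the 8 genes in each library (points) with group means (bars) at timepoints 1 to 3, 3D left of 2D. The open point is the 2D library outside the tests and outside the mean, scaled separately with all 18 libraries. SERPINB2 has a log axis, SERPINB10 a log axis that is linear below 0.03, and the others linear axes from 0. SERPINB2 lies between 11.1 and 59.0 CPM at timepoint 1 and under 3 CPM in every later library.

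SERPINB2, the inhibitor of urokinase and tissue plasminogen activator (ENSG00000197632.9, chr18:63887705-63903888), ranged from 0.0998 to 59.0 CPM. At timepoint 1 it had 11.1, 12.5 and 46.9 CPM in 3D, against 16.9, 16.6 and 59.0 CPM in 2D. The replicate 3 library was the highest of each culture and the groups overlapped. At timepoint 2 it had 0.866, 0.410 and 0.869 CPM in 3D, against 2.05, 1.62 and 2.55 CPM in 2D. At timepoint 3 it had 0.362, 0.0998 and 0.669 CPM in 3D, against 0.885 and 1.71 CPM in the fitted 2D libraries. All 3D libraries lay below all fitted 2D libraries at both later timepoints, while the 2D library outside the fit, at 0.504 CPM, fell within the 3D range. Of the 8 pairs of fitted libraries that share a replicate number and timepoint, 3D was lower in 8, with ratios of 0.113 to 0.795.

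In 3D, SERPINB2 averaged 0.715 ± 0.264 CPM at timepoint 2, against 23.5 ± 20.3 at timepoint 1 (SD, n = 3 each), a log2 fold change of -5.01 (SE 0.72, adjusted p = 0.00029). At timepoint 3 in 3D it averaged 0.377 ± 0.285 CPM, a log2 fold change of -5.93 against timepoint 1 (SE 0.76, adjusted p = 9.34e-05). In 2D the change was -3.90 at timepoint 2 (SE 0.66, adjusted p = 0.00227) and -4.55 at timepoint 3 (SE 0.82, adjusted p = 0.00465). The 2D call at timepoint 3 rests on 2 libraries: the adjusted p was 0.0993 without replicate 2 and 0.0545 without replicate 3. Leaving out both timepoint 1 libraries of replicate 3 together kept SERPINB2 called in all 4 of these comparisons. Ordered by mean, the groups ran 2D timepoint 1, 3D timepoint 1, 2D timepoint 2, 2D timepoint 3, 3D timepoint 2 and 3D timepoint 3. The first pair of neighbours in that order overlapped, as did 2D timepoints 2 and 3, and 3D timepoints 2 and 3.

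Between cultures, SERPINB2 in 3D over 2D had a log2 fold change of -0.39 at timepoint 1 (SE 0.59), -1.51 at timepoint 2 (95% interval -2.80 to -0.22) and -1.77 at timepoint 3 (95% interval -3.26 to -0.28). The adjusted p-values were 1, 0.211 and 0.222, and 1, 0.0167 and 0.0383 with the replicate block. The difference at the later timepoints minus that at timepoint 1 was -1.12 (SE 0.88, adjusted p = 0.719) and -1.37 (SE 0.96, adjusted p = 0.691). With no filter on low counts the difference at timepoint 3 minus that at timepoint 1 was -1.40 with an adjusted p of 0.038. In the authors' deposited tables the log2 fold changes of SERPINB2 were -0.47, -1.58 and -2.08 at timepoints 1, 2 and 3, with adjusted p of 1, 0.267 and 0.295. Those tables list 13677 genes and 6 of the 8 members, all but SERPINB3 and SERPINB4, and none of the 6 has an adjusted p under 0.05.

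SERPINB10, known as bomapin and first described in bone marrow cells (ENSG00000242550.6, chr18:63897174-63917490), followed SERPINB2 in both cultures. Its counts at timepoint 1 were 202, 164 and 521 in 3D and 263, 196 and 668 in 2D. At timepoint 2 they were 14, 4 and 8 in 3D and 20, 28 and 36 in 2D, and at timepoint 3 they were 10, 0 and 8 in 3D and 10, 2 and 16 in 2D, the first 2D value being that of the library outside the fit. The replicate 3 libraries were again highest at timepoint 1. The 3D levels lay below the 2D levels at timepoint 2 (0.0781 to 0.166 CPM in 3D, 0.248 to 0.498 CPM in 2D) and overlapped at timepoint 3. The fall against timepoint 1 was -5.09 and -5.64 on the log2 scale in 3D (adjusted p = 0.000548 and 0.000308 at timepoints 2 and 3) and -3.83 and -5.30 in 2D (adjusted p = 0.00371 and 0.0042). Without 2D timepoint 3 replicate 2, the last of these had an adjusted p of 0.0841. In 3D over 2D the log2 fold change was -0.29, -1.55 and -0.63 at timepoints 1 to 3, and none passed with or without the block (adjusted p = 0.287 at timepoint 2, and 0.0805 with the replicate block).

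SERPINB10 and SERPINB2 may share reads. In GENCODE 29 the genes share 547 exon bases on the same strand, between chr18:63897174 and chr18:63902975, which is 19.9% of the exon bases of SERPINB2 and 20.3% of those of SERPINB10. These bases lie in 2 of the 4 SERPINB10 transcripts, and 500 of the 2698 stretches of 50 bases in SERPINB10 transcripts, the read length, also occur in SERPINB2. SERPINB10 had between 0 and 0.385 times the count of SERPINB2 in each library. Its count was even in 16 of 18 libraries, against 9 to 14 for the other 7 genes. RefSeq places SERPINB10 at chr18:63907958-63936111, which does not overlap its SERPINB2 (chr18:63887705-63903888). The log2 CPM of the pair had a Pearson r of 0.979 over the 17 fitted libraries and 0.91 within groups, given as a description. The share of SERPINB10 counts that comes from SERPINB2 RNA was not tested.

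**Figure D2:**
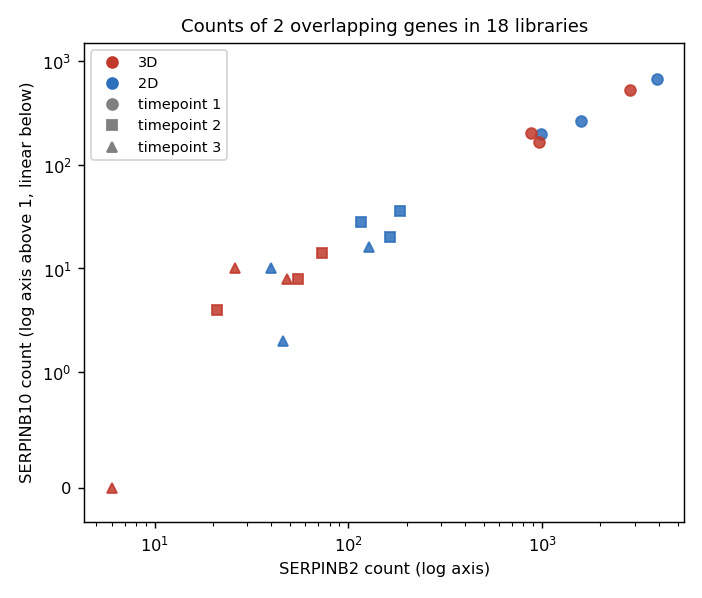
Counts of SERPINB10 against SERPINB2 in the 18 libraries, on log axes (linear below 1 for SERPINB10), with colour for culture and shape for timepoint. The 6 timepoint 1 libraries sit at the upper right, and the library with 0 SERPINB10 counts, 3D timepoint 3 replicate 2, also has the lowest SERPINB2 count, 6.

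The targets of SERPINB2 were read in the same libraries. Of 22 listed proteases and protease receptors linked to clade B serpins, 15 were tested. Against timepoint 1, 4 fell and 0 rose at each later timepoint in 3D; in 2D, 3 fell and 1 rose at timepoint 2 and 2 fell and 1 rose at timepoint 3, where 4 fell and 1 rose with the replicate block. Of all tested genes, 15.1% and 11% were called at timepoints 2 and 3 in 3D. In 2D the shares were 5.87% and 4.86%, and 10.5% at timepoint 3 with the block. The plasminogen activation genes below were named after their values had been seen. PLAU, urokinase, had 10.9, 13.9 and 8.99 CPM at timepoint 2 in 3D, against 116, 148 and 110 CPM at timepoint 1. In 2D it had 8.77, 8.72 and 12.2 CPM at timepoint 2, against 102, 96.2 and 97.1 CPM at timepoint 1. The ranges were far apart in both cultures, with log2 fold changes of -3.47 in 3D (adjusted p = 8.78e-08) and -3.31 in 2D (adjusted p = 5.11e-07).

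At timepoint 3, PLAU had a log2 fold change of -4.14 in 3D and -3.30 in 2D against timepoint 1. PLAUR, the urokinase receptor, had changes of -1.68 and -2.18 in 3D and -1.95 and -1.98 in 2D at timepoints 2 and 3, all past the threshold. PLAT, tissue plasminogen activator, fell by 1.38 and 1.44 on the log2 scale in 3D and by 0.95 at timepoint 2 in 2D, while its change of -0.82 at timepoint 3 in 2D had an adjusted p of 0.112 and of 0.0144 with the replicate block. In 3D over 2D, none of PLAU, PLAUR and PLAT passed at any timepoint in the fit without the block; PLAT at timepoint 2 had a log2 fold change of -0.55 with an adjusted p of 0.221, and of 0.0451 with the block. KLK7, a chymotrypsin-like kallikrein of the skin, was the 1 of the 15 past the threshold in 3D over 2D without the block. Of all tested genes, 1.49% and 1.5% were called at timepoints 2 and 3 in that fit. With the block, 3 were lower in 3D at timepoint 2, KLK7, PLAT and ST14 (matriptase, log2 fold change -0.64, adjusted p = 0.0111), and 3 at timepoint 3, KLK7, ST14 (-0.85, 0.0218) and KLK5 (-4.72, 0.0471). Of all tested genes, 15.9% and 9.75% were called with the block. KLK5 was near the floor at timepoint 3, with 0.0186 ± 0.0322 CPM in 3D (n = 3), against 0.551 ± 0.316 CPM in 2D (SD, n = 2). Its adjusted p there was 0.155 without the block. KLK7 averaged 0.0684 ± 0.119 CPM in 3D, against 1.95 ± 1.22 CPM in 2D at timepoint 2 (SD, n = 3 each, adjusted p = 0.033), with log2 fold changes of -4.82 there and -6.73 at timepoint 3 (adjusted p = 0.0108).

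**Figure D3:**
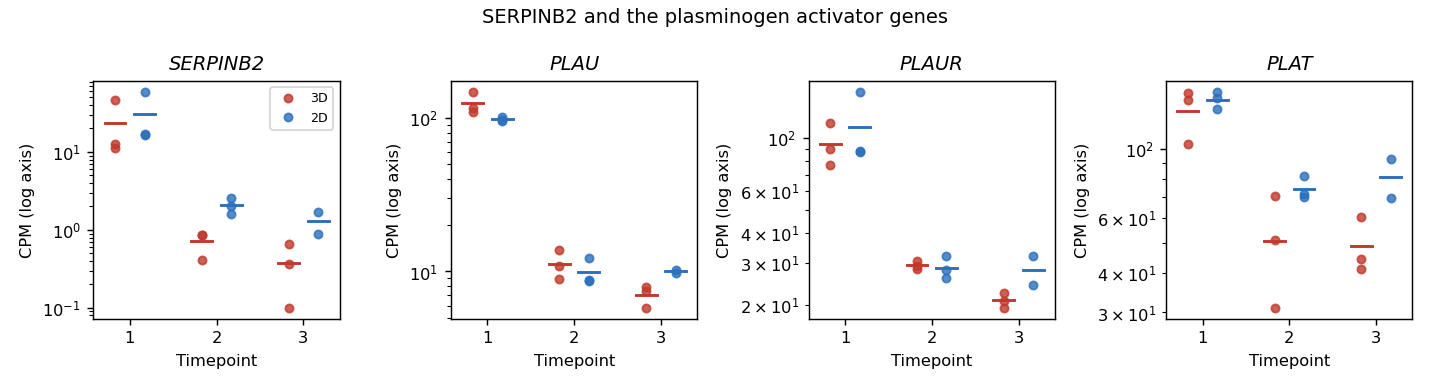
CPM on log axes of SERPINB2 and of PLAU, PLAUR and PLAT in the fitted libraries (points) with group means (bars) at timepoints 1 to 3, 3D left of 2D. All 4 genes are lower at timepoints 2 and 3 than at timepoint 1 in both cultures. At timepoint 2 the 3D libraries of SERPINB2 all lie below the 2D libraries, as for 13% of all tested genes. PLAT overlaps there by its highest 3D library alone (70.6 CPM, against 70.2 CPM in the lowest 2D library). At timepoint 3 the 3D libraries lie below the 2D libraries for all 4 genes, as for 20.2% of all tested genes.

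SERPINB13, also called hurpin or headpin, an inhibitor of lysosomal cathepsins in squamous epithelium (ENSG00000197641.11, chr18:63587300-63599198), fell with time in 3D. At timepoint 1 it had 1.07, 2.04 and 2.64 CPM in 3D, against 1.08, 1.41 and 2.09 CPM in 2D, and the groups overlapped. At timepoint 2 it had 0.285, 0.332 and 0.584 CPM in 3D, against 0.869, 0.724 and 1.48 CPM in 2D, and the groups did not overlap. At timepoint 3 it had 0.459, 0.333 and 0.613 CPM in 3D, against 0.269 and 1.92 CPM in 2D, and the 2D library outside the fit had 0.819 CPM. The 2D libraries of timepoint 3 thus spanned the 3D range on both sides.

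Against timepoint 1, SERPINB13 in 3D had a log2 fold change of -2.26 at timepoint 2 (SE 0.57, adjusted p = 0.0153) and -2.02 at timepoint 3 (SE 0.56, adjusted p = 0.0286). In 2D the values were -0.57 (SE 0.53, adjusted p = 0.648) and -0.45 (SE 0.60, adjusted p = 0.735). The 2D value at timepoint 3 rests on 2 libraries far apart: it was 0.33 without replicate 2 and -2.49 without replicate 3, neither past the threshold. The call at timepoint 2 in 3D was lost without 3D timepoint 2 replicate 1 (adjusted p = 0.0612). The call at timepoint 3 in 3D was lost without 3D timepoint 1 replicate 2 (0.0771) or replicate 3 (0.0657), or without any 1 of the 3D timepoint 3 libraries (0.0845, 0.0903 and 0.0608 for replicates 1, 2 and 3). Between cultures, 3D over 2D, its log2 fold change was 0.33 at timepoint 1, -1.36 at timepoint 2 (95% interval -2.46 to -0.25) and -1.24 at timepoint 3. The adjusted p was 0.195 at timepoint 2, and 0.0314 with the replicate block. At timepoint 3 it was 0.276, and 0.253 with the block. The culture difference at timepoint 2 minus that at timepoint 1 was -1.68 (SE 0.77), with an unadjusted p of 0.0439 and an adjusted p of 0.566, so the cultures' changes were not shown to differ.

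SERPINB8, an inhibitor of the proprotein convertase furin (ENSG00000166401.14, chr18:63969925-63989374), had lower levels at the later timepoints in both cultures, and whether these passed the test depended on the fit. At timepoint 1 it had 54.2, 51.4 and 58.3 CPM in 3D, against 50.4, 49.4 and 61.1 CPM in 2D. At timepoint 2 it had 48.9, 32.7 and 37.8 CPM in 3D, against 33.1, 29.4 and 41.4 CPM in 2D. At timepoint 3 it had 46.1, 34.2 and 44.6 CPM in 3D, against 26.1 and 37.8 CPM in 2D. In each culture all later libraries lay below all timepoint 1 libraries. The log2 fold changes against timepoint 1 were -0.46 and -0.39 in 3D and -0.63 and -0.75 in 2D. The adjusted p-values were 0.129 and 0.22 in 3D and 0.0718 and 0.069 in 2D, so none passed. With the replicate block all 4 passed, at 0.0184 and 0.0398 in 3D and 0.00544 and 0.00734 in 2D. Without a block, DESeq2 called both 2D comparisons (adjusted p = 0.0258 and 0.0191), and edgeR on genes with a mean count of at least 50 called 2D at timepoint 3 (0.0482). The 3D over 2D log2 fold change was 0.03, 0.20 and 0.38 at timepoints 1 to 3, with the last interval running from -0.05 to 0.81. HMSD shares 370 exon bases with SERPINB8 (6.3% of the SERPINB8 exon bases), and 5.4% of the 50-base stretches of SERPINB8 occur in HMSD.

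SERPINB5, maspin, a non-inhibitory serpin studied as a tumour suppressor of mammary epithelium (ENSG00000206075.14, chr18:63476958-63505085), was the member with the most counts, 6862 to 30646 per library. At timepoint 1 it had 142, 168 and 257 CPM in 3D, against 144, 123 and 186 CPM in 2D. At timepoint 2 it had 364, 177 and 208 CPM in 3D, against 199, 167 and 245 CPM in 2D. At timepoint 3 it had 285, 198 and 237 CPM in 3D, against 132 and 214 CPM in 2D. The groups overlapped in every comparison. In 3D over 2D the log2 fold change was 0.32, 0.29 and 0.47 at timepoints 1 to 3 (adjusted p = 1, 0.602 and 0.436), with 95% intervals of -0.24 to 0.89, -0.27 to 0.86 and -0.17 to 1.12. Differences of up to 1.12 on the log2 scale at timepoint 3 therefore lie within the error.

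SERPINB7, or megsin, whose loss underlies a palmoplantar keratosis (ENSG00000166396.13, chr18:63753047-63805376), had 26 to 114 counts per library. At timepoint 1 it had 1.11, 1.47 and 1.35 CPM in 3D, against 1.09, 0.943 and 0.421 CPM in 2D, and the groups did not overlap. The log2 fold change there was 0.67 (SE 0.39), with an unadjusted p of 0.0991 and an adjusted p of 1. At timepoint 2 it had 1.03, 1.29 and 0.821 CPM in 3D, against 1.01, 0.362 and 0.858 CPM in 2D. Its timepoint 3 levels were 0.835, 0.899 and 1.23 CPM in 3D, against 0.885 and 1.40 CPM in 2D. The groups overlapped at both later timepoints, where the fold changes were 0.49 and -0.22 on the log2 scale.

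SERPINB3, an inhibitor of cysteine cathepsins, and its near copy SERPINB4, which inhibits chymotrypsin-like serine proteases, were close to the detection limit. SERPINB3 (ENSG00000057149.16, chr18:63655197-63661893) had 11 to 50 counts per library, and SERPINB4 (ENSG00000206073.10, chr18:63637259-63644298) had 0 to 12. SERPINB3 averaged 0.354 ± 0.194 CPM in 3D, against 0.372 ± 0.303 CPM in 2D at timepoint 1 (SD, n = 3 each). It averaged 0.523 ± 0.261 CPM in 3D, against 0.381 ± 0.21 CPM in 2D at timepoint 2. At timepoint 3 it had 0.64, 0.35 and 0.655 CPM in 3D, against 0.289 and 0.521 CPM in 2D. Its culture fold changes were -0.08, 0.47 and 0.43 on the log2 scale, with 95% intervals that each spanned 0.

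SERPINB4 had 9, 8 and 12 counts in 3D, against 9, 3 and 3 counts in 2D at timepoint 1. At timepoint 2 it had 11, 0 and 2 counts in 3D, against 10, 6 and 8 counts in 2D, and at timepoint 3 it had 4, 1 and 10 counts in 3D, against 0 and 2 counts in the fitted 2D libraries, with 7 in the one outside the fit. No difference was detectable at this depth: the interval at timepoint 3 ran from -0.34 to 4.58 on the log2 scale. Of the 50-base stretches in SERPINB3 transcripts, 413 of 1774 (23.3%) also occur in SERPINB4 transcripts, so how their reads were split is uncertain. SERPINB3 also shares 620 exon bases, 34.9% of its own, with SERPINB11 on the opposite strand, and the strand setting of the counting is not stated.

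Across the whole list, the members called by the edgeR test are given beside the share of all tested genes called in the same comparison. The members were chosen with these contrasts in view, so nothing is read from the pairs of values. Between cultures, 0 of 8 were called at timepoint 1 (0% of genes), 0 at timepoint 2 (1.49%) and 0 at timepoint 3 (1.5%). At an unadjusted p under 0.05 the members were 0, 2 and 1. DESeq2 and limma-voom also called 0 at each timepoint. With the replicate block, 2 were called at timepoint 2 (15.9% of genes) and 1 at timepoint 3 (9.75%). Without a model, all fitted 3D libraries lay below all fitted 2D libraries for 3 members at timepoint 2, SERPINB2, SERPINB10 and SERPINB13 (13% of genes), and for 1 at timepoint 3, SERPINB2 (20.2%). They lay above them for 2 members at timepoint 1, SERPINB4 and SERPINB7 (1.43%).

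In 3D, 3 members were called at timepoint 2 over timepoint 1 (15.1% of genes) and 3 at timepoint 3 (11%). In 2D, 2 were called at timepoint 2 (5.87%) and 2 at timepoint 3 (4.86%). All called members were lower than at timepoint 1. SERPINB2 and SERPINB10, which may share reads, were both among them each time. The counts and medians of the list may therefore hold 1 signal more than once. With the block the counts were 4 and 4 in 3D (28.4% and 23.9% of genes) and 3 and 3 in 2D (13.7% and 10.5%), the added gene being SERPINB8 each time. All libraries of the later timepoint lay below all of timepoint 1 for 4 members at timepoint 2 and 4 at timepoint 3 in 3D (13.9% and 14.2% of genes), and for 3 and 4 in 2D (11.6% and 16.8%); SERPINB8 was among them each time. The median log2 fold change of the 8 was -0.83 and -0.66 in 3D, against 0.01 and 0.04 for all genes, and -0.36 and -0.60 in 2D, against 0.00 and -0.02. None of the 8 was called for a culture difference that itself changed with time, at timepoint 2 (0% of genes) or timepoint 3 (0.183%), by edgeR, DESeq2 or limma-voom. By edgeR, 1 and 0 members had an unadjusted p under 0.05 there.

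**Figure D4:**
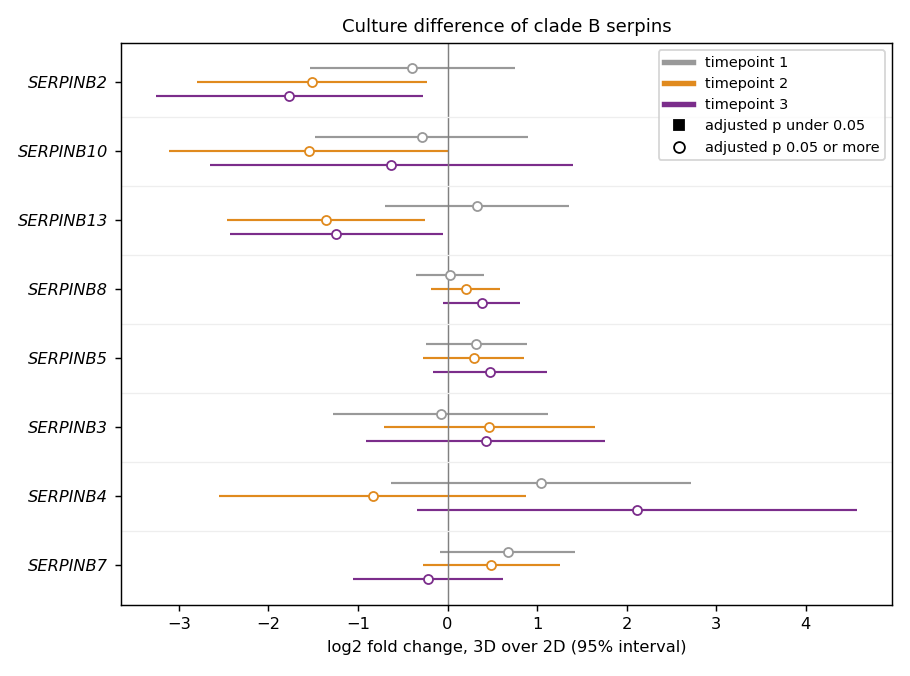
Log2 fold change of each gene in 3D over 2D at timepoints 1, 2 and 3, with 95% intervals. All points are open, as none had an adjusted p under 0.05 in the fit without the replicate block, which is shown. SERPINB2 and SERPINB13 lie between -1.24 and -1.77 at timepoints 2 and 3.

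**Figure D5:**
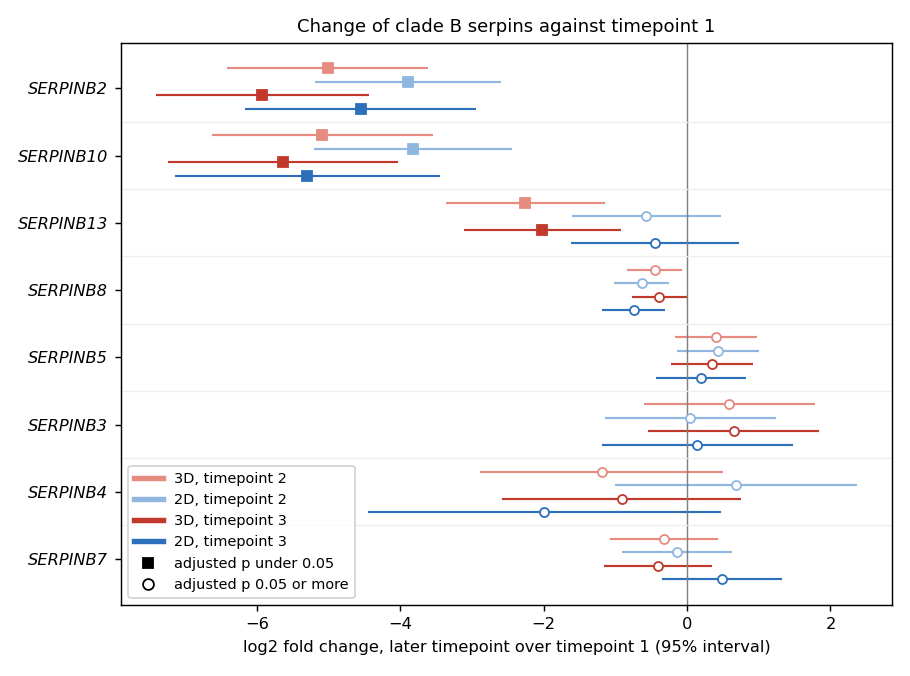
Log2 fold change of each gene at timepoints 2 and 3 over timepoint 1, in 3D (reds) and 2D (blues), with 95% intervals; filled squares mark an adjusted p under 0.05. Values are from the fit without the replicate block. SERPINB2 and SERPINB10 lie between -3.83 and -5.93 in both cultures, and SERPINB13 is filled in 3D alone.

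Of the other genes within 1 Mb of the cluster, 8 of 25 were tested: ZCCHC2, PHLPP1, KDSR, VPS4B, BCL2, SERPINB11, HMSD and AC036176.1. None was called in 3D over 2D at any timepoint, where 0, 1 and 1 had an unadjusted p under 0.05, in each case ZCCHC2. None was called in 2D over time with or without the block, where 2 and 1 had an unadjusted p under 0.05 at timepoints 2 and 3. In 3D at timepoint 2, VPS4B, an ATPase of endosomal sorting, had a log2 fold change of -0.54 against timepoint 1 (adjusted p = 0.0134) and ZCCHC2 one of -0.72 (adjusted p = 0.0413). VPS4B was also called in 3D at timepoint 3, with -0.43 (adjusted p = 0.0488), and with the block BCL2 was too, with 1.36 (adjusted p = 0.0482). Of all tested genes, 15.1% and 11% were called in 3D at timepoints 2 and 3, and 23.9% at timepoint 3 with the block.

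The other clade B serpins and the serpins of other clades showed no call between cultures in the fit without the block. SERPINB1, SERPINB6 and SERPINB11 were the 3 of 5 other clade B genes that were tested, and none was called in any comparison without the replicate block, with culture fold changes of -0.03 to 0.86 on the log2 scale. The 1 unadjusted p under 0.05 was that of SERPINB6, an intracellular inhibitor of trypsin-like proteases, in 3D at timepoint 2 over timepoint 1 (log2 fold change 0.60, adjusted p = 0.0758, and 0.00294 with the block). In 3D at timepoint 3 it had a change of 0.40 (adjusted p = 0.262, and 0.0253 with the block). Of 22 serpins of other clades 12 were tested, and by edgeR 0 were called between cultures at each timepoint, with 1, 2 and 3 unadjusted p-values under 0.05 at timepoints 1 to 3. Over time, SERPINA3, antichymotrypsin, rose in 2D at timepoint 3 and in 3D at timepoint 2. SERPINE2, protease nexin 1, rose in 3D at timepoint 2, and none of the 12 fell in the fit without the block. Of all tested genes, 4.86% were called in 2D at timepoint 3 and 15.1% in 3D at timepoint 2. With the block SERPINE2 passed in all 4 comparisons over time.

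Squamous differentiation genes and epithelial transcription factors, the classes with which clade B serpins are usually measured, were lower in 3D in part. Of 30 squamous genes 21 were tested, and in 3D over 2D 0 were called at timepoint 2 (7 at an unadjusted p under 0.05) and 2 fell at timepoint 3, with 9 and 11 lower under the replicate block and none higher. The 2 were KRT16, a stress keratin, with 45.2 ± 18.4 CPM in 3D (n = 3), against 160 ± 24.6 CPM in 2D (n = 2; SD, adjusted p = 0.0393), and SPRR1A, a cornified envelope protein (log2 fold change -3.35, adjusted p = 0.0439). Of 36 epithelial and stress transcription factors 35 were tested, and 9 were lower in 3D at timepoint 2 (1.49% of all tested genes were called there) and 14 at timepoint 3 (1.5%), with none higher. With the block 18 and 22 were lower (15.9% and 9.75% of genes) and none higher. At timepoint 3 these included ATF3 (log2 fold change -4.43), KLF4 (-2.43), FOSB (-3.26) and ELF3 (-4.19), and at timepoint 2 ELF3 (-3.68), FOSB (-2.21), ATF3 (-2.00) and GRHL3 (-2.36). Of the 15 epithelial identity genes, 0 were called between cultures (0, 3 and 4 at an unadjusted p under 0.05 at timepoints 1 to 3). With the replicate block, EPCAM and CDH1 were lower in 3D at timepoint 2 (log2 fold changes -0.97 and -1.14) and 1 of the 15 was higher. At timepoint 3 CDH1 was lower with the block (-1.23) and 0 were higher. In 3D at timepoint 3 over timepoint 1, 5 of the 15 fell and 0 rose (11% of all tested genes were called). With the block 7 fell and 2 rose (23.9% of genes). Their summed level was 6578 to 9756 CPM in 3D at timepoint 3, against 10500 to 17490 CPM in 3D at timepoint 1, and 11130 to 12460 CPM in 2D at timepoint 3, against 9770 to 17750 CPM in 2D at timepoint 1. Of the 8 tested markers of other cell types, 0 were called between cultures (0, 1 and 1 at an unadjusted p under 0.05). With the block PECAM1 was lower in 3D at timepoint 2 (log2 fold change -0.99, adjusted p = 0.0255). Over time CD68, a lysosomal membrane protein, rose in all 4 comparisons and LUM fell in 3D at timepoint 3. Their part in the serpin values was not tested.

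Some genes outside the list tracked single members over the 17 fitted libraries, among 13567 genes with a mean count of at least 50. Given as descriptions by Pearson r of log2 CPM, across libraries that share timepoints and scaling, the closest to SERPINB2 were C1orf116 (0.973), SOX9 (0.967) and DENND2C (0.966). The closest to SERPINB8 were ARNTL (0.963), HMGB3 (0.95) and RUSC1-AS1 (0.948), and the closest to SERPINB5 were COPZ1 (0.864), ATP6V1D (0.862) and MFAP1 (0.86).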

How the data were processed

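Poly-A RNA was read as single 50-base reads on the Illumina platform named in the labels. Per the submitters' processing notes, STAR 2.7.1a, HOMER, edgeR and limma were used on hg38; the sources used here do not give roles, annotation release or strand setting. The deposited gene counts are whole numbers with no normalisation by the authors. The authors' deposited log2 CPM values were not used here, and their log2 fold changes and p-values, from limma per the file headers, are quoted where named.

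Groups came from the sample titles. Counts of 17 libraries were filtered with filterByExpr, scaled by TMM and fitted in 1 model over 6 groups by edgeR 4.0.16 in R 4.3.3 (quasi-likelihood F test), with Benjamini-Hochberg adjustment over 18592 genes and a threshold of 0.05. The SE is the log2 fold change divided by the square root of F, and 95% intervals are 1.96 SE. The labels do not say whether libraries are separate cultures, so the p-values cover only the spread among these libraries, which may be technical. Replicate numbers carry a date shared across groups, so they pair libraries. Same-numbered libraries of different groups deviated together once group means were removed (mean correlation 0.209, lowest -0.041). The mean of -0.104 for different numbers largely follows from that removal and is no separate evidence of pairing. The main fit leaves this pairing out, and the fit with the replicate block includes it. For 3D over 2D at timepoint 2, the main fit called 1.49% of genes and the block fit 15.9%.

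The members, lists and rules were chosen with earlier results of these data known. All members were named; from each list, up to 4 called genes with the smallest p in 3D over 2D at timepoints 2 and 3. Exon overlap and 50-base stretches came from GENCODE 29. Alternatives were DESeq2 1.42.0, limma-voom of limma 3.58.1, other scalings and filters, the replicate block, the compared groups alone, all 18 libraries and leaving out each library. On simulated data for 3D over 2D at timepoint 2, 35% of 2-fold and 93% of 4-fold changes were recovered. The changes were set only in genes with a mean count of at least 50, which leaves out SERPINB3 (30.2) and SERPINB4 (5.77). That mean was over all 17 libraries, and each gene was simulated at 1 level in all groups before the change. At timepoint 2, SERPINB2 had 21 to 73 counts in 3D and 116 to 184 in 2D. SERPINB10 had 4 to 14 and 20 to 36 there, and SERPINB13 had 17 to 37 and 52 to 107. The rates therefore do not stand for these 3 members at those counts. These rates are averages over such genes and were not estimated for any single member. In that comparison SERPINB2, SERPINB10 and SERPINB13 had SEs of 0.66, 0.80 and 0.56 on the log2 scale.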

Additional observations from a re-analysis of the deposited data

How the results depend on the processing

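Members called are counted per comparison. Without a filter on low counts, 3 were called in 3D over 2D at timepoint 2, 1 at timepoint 3, and 1, SERPINB2, for the culture difference at timepoint 3 minus that at timepoint 1. With the replicate block, 2 and 1 were called at timepoints 2 and 3 (15.9% and 9.75% of genes). With only the compared groups fitted, 1 was called at timepoint 2. The share of all genes called is not given here without the filter or with the compared groups alone. Nothing about the members is read from those counts. The cause of these shifts was not tested. Leaving out 1 library at a time gave 0 to 0 calls between cultures at timepoint 1 (0 to 0 of all genes) and at timepoint 2 (0 to 216). The difference of differences at timepoint 2 gave 0 to 0 (0 to 3 genes). Timepoint 2 over 1 gave 2 to 2 in 2D (618 to 818 genes) and 2 to 3 in 3D (1252 to 3606). Timepoint 3 over 1 in 3D gave 2 to 3 (1131 to 2749 genes). Leaving out either fitted 2D timepoint 3 library leaves 1 in that group, assumed to vary like the others. Calls for comparisons with that group are therefore not counted here. Without its replicate 2, timepoint 3 over 1 in 2D was -4.18 for SERPINB2 and -4.65 for SERPINB10 on the log2 scale. Those 2D calls rest on 2 libraries. Both timepoint 1 libraries of replicate 3 were left out together as an alternative chosen after seeing the data, which lost SERPINB13 at timepoint 3 over 1 in 3D (adjusted p = 0.0611). RLE and upper-quartile scaling, header totals, DESeq2, limma-voom, the stricter filter and all 18 libraries moved no count by over 1.5 times. Header totals moved the median of all genes to -0.226 at timepoint 2 in 3D over 2D. No direction of a called gene reversed. Depth limits SERPINB4, with 0 to 12 counts, and SERPINB3, with 11 to 50.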
